A study of Mus musculus with 8 samples.

Results

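S100 proteins are small calcium-binding proteins that work as dimers, and 9 of their genes were followed here in the left ventricle of 12-month-old mice. The genes were S100a1, S100a4, S100a6, S100a8, S100a9, S100a10, S100a11, S100a13 and S100b, taken by their symbols in the deposited table. They are 9 of 17850 genes on the array, and each was read by 1 of its 25697 probes. RNA came from the left ventricle with the septum of 8 mice on a Swiss Agouti background. Of these, 4 were heterozygotes carrying a knock-in deletion, made as a model of increased late sodium current, and 4 were their wild-type littermates. All 8 mice were 12 months old, and no treatment is named in the labels. Each mouse gave 1 Illumina bead array, so precision is limited by 4 arrays per genotype.

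Inside a cell, an S100 dimer that has bound calcium changes shape and docks on a target protein. Some members also act as alarmins: when released by damaged or activated cells they are sensed by Tlr4 and by Ager, the receptor for advanced glycation end products. S100a1 is the member known from heart muscle, where it binds the ryanodine receptor and the calcium pump of the sarcoplasmic reticulum. S100a8 and S100a9 pair to form calprotectin, the abundant cytosolic protein of neutrophils and of monocytes. S100a4 and S100a6 are known from fibroblasts and other stromal cells, S100a10 and S100a11 dock on annexins, S100a13 helps to export the growth factor Fgf1, and S100b is known from glia.

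In the mouse genome 8 of these genes lie on chromosome 3 and S100b lies on chromosome 10. S100a8 is the direct neighbour of S100a9, S100a11 that of S100a10, and S100a1 that of S100a13. The windows around the annotated starts are shown for the calprotectin pair, for S100a11 and for S100a1, because the values below turn on these genes. Each window is from RefSeq (GRCm38.p6), 5′ to 3′ on the gene's own strand, with 250 bases before and 50 after the start, and 8 of the 9 genes had a window. Capitals mark matches to TATAAA (the TATA box), TTNNGNAA (a loose C/EBP motif) or TGANTCA (the AP-1 motif), each searched on both strands, with no overlap between matches of different motifs.
S100a8, chr3:90668821-90669120, plus strand: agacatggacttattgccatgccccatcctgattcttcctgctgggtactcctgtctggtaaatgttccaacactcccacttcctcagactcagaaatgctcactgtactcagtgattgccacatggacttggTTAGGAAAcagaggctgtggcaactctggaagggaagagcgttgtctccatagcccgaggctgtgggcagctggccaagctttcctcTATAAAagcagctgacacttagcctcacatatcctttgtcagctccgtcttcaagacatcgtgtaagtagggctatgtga
S100a9, chr3:90695672-90695971, minus strand: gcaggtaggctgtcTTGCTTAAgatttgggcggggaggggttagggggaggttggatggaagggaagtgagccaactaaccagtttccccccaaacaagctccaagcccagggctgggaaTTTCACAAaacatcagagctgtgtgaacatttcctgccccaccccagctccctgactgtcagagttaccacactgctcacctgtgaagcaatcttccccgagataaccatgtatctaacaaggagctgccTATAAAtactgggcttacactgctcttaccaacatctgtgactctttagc
S100a11, chr3:93520246-93520545, plus strand: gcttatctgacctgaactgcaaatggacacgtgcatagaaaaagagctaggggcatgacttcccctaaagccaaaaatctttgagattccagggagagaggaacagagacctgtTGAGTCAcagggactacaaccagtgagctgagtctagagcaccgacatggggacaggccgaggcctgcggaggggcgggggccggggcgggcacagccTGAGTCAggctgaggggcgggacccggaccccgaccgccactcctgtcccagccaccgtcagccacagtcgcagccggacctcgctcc
S100a1, chr3:90514281-90514580, minus strand: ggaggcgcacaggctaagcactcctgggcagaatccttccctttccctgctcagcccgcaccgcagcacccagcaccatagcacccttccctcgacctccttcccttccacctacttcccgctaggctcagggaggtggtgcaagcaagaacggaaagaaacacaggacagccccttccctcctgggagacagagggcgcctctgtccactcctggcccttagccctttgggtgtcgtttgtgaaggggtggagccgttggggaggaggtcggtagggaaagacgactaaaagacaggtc

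The S100a8 window held TATAAA beginning 30 bases before the start, and in S100a9 the same letters began at the first annotated base. S100a4, whose sequence is not shown, held it 31 bases before its start. Of 32851 windows of the same length, 13.6% held TATAAA. The C/EBP letters matched 1 time in S100a8 and 2 times in S100a9, and 40.7% of all windows held such a match. S100a11 held 2 matches to the AP-1 letters, found in 7.81% of all windows, and no match to the other motifs. The windows of S100a1 and S100a13 held none of the 3 motifs. These genes run in opposite directions from starts 105 bases apart, so their windows share 204 bases. A match is a description of letters only.

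Detection came first, and it split the family. S100a1, S100a6, S100a8, S100a9, S100a10, S100a11 and S100a13 were detected (detection p under 0.01) on all 8 arrays. S100a4 was detected on 2 of 4 heterozygote arrays and on 0 of 4 wild-type arrays, and at a detection p under 0.05 on 3 and 2. S100b was detected on 0 of 8 arrays. The test required detection on at least 4 of 8 arrays, which 7 of the 9 members met.

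The arrays themselves were alike but for 1 mouse. Between 10094 and 11545 probes were detected per array, and the median deposited intensity lay between 4.98 and 7.56. The mean correlation with the remaining 7 arrays was lowest for heterozygote 3, at 0.950, where every other mouse had 0.971 to 0.977. The 12 tested cardiomyocyte markers had means per mouse between 12.76 and 13.05 in heterozygotes and between 12.94 and 13.13 in wild types, in normalized log2 intensity. The list holds sarcomere genes such as the cardiac troponins, and all 12 were detected.

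No member passed the test between the genotypes. The test was limma, two-sided, with Benjamini-Hochberg adjustment over all 10547 probes tested. At an adjusted p under 0.05 it called 0 of 7 members, where it called 0% of all probes. At an unadjusted p under 0.05 there were also 0 members, against 4.67% (493) of all probes. The genotypes overlapped in all 7 members, whereas in 2.66% of all probes all mice of a genotype lay on the same side of the others. Differences were below 0 for 5 members and above 0 for 2, with a median of -0.13 on the log2 scale, while 50.1% of all probes lay above 0 and their median was 0.00062. In bulk tissue, fewer cells of a type and less RNA per cell cannot be told apart.

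**Figure D1:**
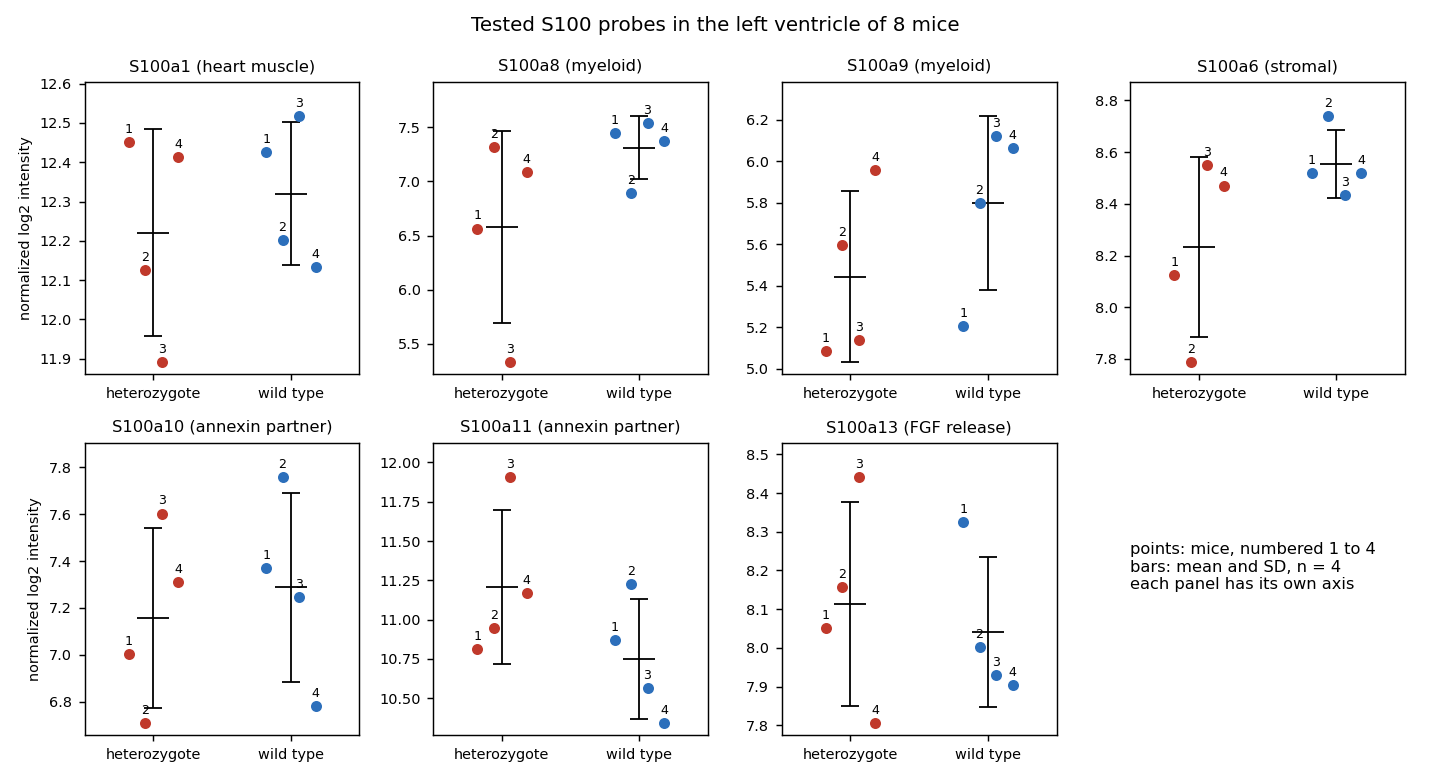
Normalized log2 intensity of the 7 tested S100 probes, with heterozygotes at the left and wild types at the right of each panel. Points are mice, numbered as in the labels, and bars are the mean and SD of 4 mice. The genotypes overlap in every panel, and heterozygote 3 is the lowest mouse for S100a1 and S100a8 and the highest for S100a11 and S100a13.

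S100a1, the heart muscle member, did not differ between the genotypes beyond the spread between mice. Its deposited intensity was 6262, 4195, 3600 and 6181 in heterozygotes 1 to 4, against 4515, 5171, 6269 and 4100 in wild types 1 to 4. The lowest mouse was heterozygote 3 and the highest was wild type 3, with the other mice of the genotypes interleaved. After normalization S100a1 averaged 12.22 ± 0.26 in heterozygotes and 12.32 ± 0.18 in wild types (SD, n = 4 each, log2). The difference was -0.10 (SE 0.17, 95% interval -0.47 to 0.27), with a limma adjusted p of 0.984. Without heterozygote 3 it was 0.0089. Over the 8 mice S100a1 had an SD of 0.22, and 32.3% of tested probes varied as little or less.

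Targets of S100a1 in the heart did not pass the test either. Of 7 tested genes in this list, 0 rose and 0 fell at an adjusted p under 0.05 (limma), 6 had differences below 0 and 1 above, and their median was -0.22 (-0.13 without heterozygote 3). Atp5a1, a subunit of the mitochondrial ATP synthase, differed by -0.40. The giant sarcomere protein gene Ttn differed by -0.22, and Pln, the inhibitor of the calcium pump, by -0.25 (-0.39 without wild type 2). Each of these had an adjusted p of 0.947 or 0.951 with limma. Of the 12 cardiomyocyte markers, the cell type S100a1 is known from, 0 passed (limma). Differences were below 0 for 10 and above 0 for 2, with a median of -0.11 (-0.08 without heterozygote 3). Tnni3, cardiac troponin I, differed by -0.40 (-0.25 without heterozygote 3), and Ldb3, a Z-disc protein, by -0.62 (SE 0.38, limma adjusted p 0.947). For Ldb3 heterozygotes 1 and 4 (6.66 and 6.62) lay below every wild type (7.45 to 8.40). Heterozygotes 2 and 3 (8.27 and 7.77) lay among the wild types.

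S100a8 had the largest difference among the tested members, and 1 mouse carried much of it. Its deposited intensity was 80.4, 133, 32.1 and 144 in heterozygotes 1 to 4, against 114, 117, 181 and 132 in wild types 1 to 4. Heterozygote 3 was far below every other mouse and heterozygote 1 was the next lowest, while heterozygotes 2 and 4 lay among the wild types. Normalized values averaged 6.58 ± 0.89 in heterozygotes and 7.31 ± 0.29 in wild types (SD, n = 4 each, log2). The difference was -0.74 (SE 0.37, 95% interval -1.57 to 0.10), with a limma adjusted p of 0.947. Without heterozygote 3 it was -0.33 (adjusted p = 0.752), and without heterozygote 2 it was -0.98 (adjusted p = 0.533). S100a8 also varied the most among the members, with an SD of 0.73 over the 8 mice. Of all tested probes, 97.4% varied as little or less.

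S100a9, its calprotectin partner, showed a smaller difference of the same sign. Deposited intensity was 16.7, 29.0, 26.1 and 53.4 in heterozygotes 1 to 4, against 15.9, 46.0, 56.1 and 43.6 in wild types 1 to 4. The lowest deposited value was in wild type 1 and the next lowest in heterozygote 1, so the genotypes overlapped over nearly their whole range. Normalized S100a9 averaged 5.44 ± 0.41 in heterozygotes and 5.80 ± 0.42 in wild types (SD, n = 4 each, log2). The difference was -0.35 (SE 0.25, 95% interval -0.91 to 0.20; limma adjusted p 0.947). It was -0.56 without wild type 1 (adjusted p = 0.997) and -0.23 without heterozygote 1 (adjusted p = 0.994).

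Calprotectin stood beside few other neutrophil transcripts. Of 19 neutrophil markers on the array, 12 were detected on 0 of 8 arrays, among them the granule genes Ngp, Camp, Elane and Mpo and the chemokine receptor Cxcr2. The 4 tested markers were Fpr2, Ltf, Mmp9 and Lcn2, of which Ltf and Lcn2 are also known from secretory epithelia. Their mean was 4.66, 4.81, 6.78 and 5.33 in heterozygotes 1 to 4, against 5.96, 5.14, 4.87 and 5.11 in wild types 1 to 4 (normalized log2). Heterozygote 3 was thus highest in these markers and lowest in S100a8. Heterozygote 3 and wild type 1, the highest mice for Ltf (7.04 and 7.82), were also the highest for the airway gene Scgb1a1 (13.44 and 12.98, with 4.24 to 8.97 in the other mice). Among the 4 markers 2 were above 0 and 2 below, none passed, and their median was 0.0009. Without heterozygote 3 only 1 of the 4 met the detection rule. The erythroid markers, which track blood in the sample, were lowest in heterozygote 3 as well (6.72, against 8.56 to 8.64 in the other heterozygotes and 7.46 to 8.87 in wild types). The part of blood or of white cells in the S100a8 values was not tested.

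Monocyte and macrophage markers did not pass the test. Of 9 monocyte markers on the array 3 were tested and 4 were detected nowhere, including the receptor Ccr2. Of the 3, 2 were above 0 and 1 below, with a median of 0.11, which is the value of Ly6c1. Plac8 differed by 0.40 (SE 0.79) and was highest in heterozygote 3 (8.86) and wild type 1 (6.80), the highest mice for Scgb1a1. Ear2 differed by -0.21, at a low mean of 5.07, so the list is a weak measure of monocytes. Without heterozygote 3 the 2 tested were split 1 and 1 with a median of -0.23, and the mean difference of Plac8 was -0.48. All 15 macrophage markers were tested and all 15 had differences above 0, with a median of 0.20, but 0 passed (limma) and 3 had an unadjusted p under 0.05. Those were the chemokine receptor Cx3cr1 at 0.64, F13a1 at 0.40 and the complement gene C1qc at 0.65 (0.35 without heterozygote 3), each with an adjusted p of 0.947. Without heterozygote 3 the count was 9 above and 6 below, with a median of 0.04.

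**Figure D2:**
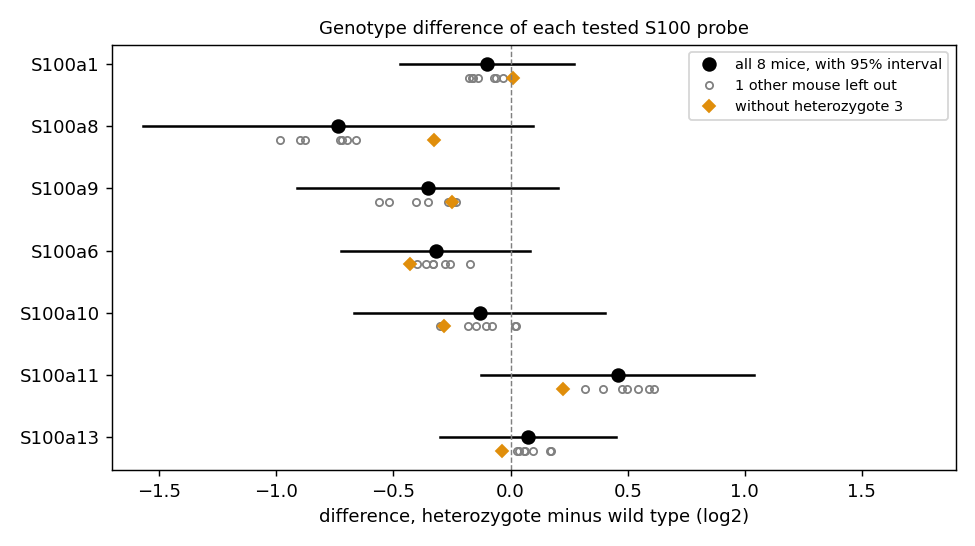
Genotype difference of each tested S100 probe on the log2 scale (heterozygote minus wild type), with the 95% limma interval from all 8 mice. Open circles leave out 1 mouse each and diamonds leave out heterozygote 3. Every interval spans 0, and S100a8 moves to -0.33 and S100a11 to 0.23 without heterozygote 3.

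The alarmin receptors and their signalling genes did not pass the test. Ager was not detected on any array. Of 14 tested genes 11 were above 0 and 3 below, with a median of 0.12 (0.06 without heterozygote 3), and 0 passed (limma). Myd88, the adaptor of the Toll-like receptors, differed by 0.35 (SE 0.20), Cd14, a co-receptor of Tlr4, by 0.46 (SE 0.27), and the inflammasome protease Casp1 by 0.48 (SE 0.37). Their adjusted p-values were 0.947, 0.947 and 0.954. Without heterozygote 3 the mean differences were 0.18 for Myd88, 0.24 for Cd14 and 0.038 for Casp1. Other alarmins were above 0 in 6 of 6 tested genes, with a median of 0.21, but only in 1 of 4 without heterozygote 3, where the median was -0.09. Without wild type 2 it was 4 of 5, with a median of 0.38. The cytokine Il1b differed by 0.54 and Anxa1 by 0.30, or by 0.26 and 0.052 without heterozygote 3. Hmgb1, Il1a and Tslp were not detected.

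S100a6 was lower in a pair of heterozygotes. Its deposited intensity was 284, 192, 382 and 410 in heterozygotes 1 to 4, against 251, 461, 344 and 310 in wild types 1 to 4. After normalization heterozygotes 1 and 2 (8.12 and 7.79) lay below all 4 wild types (8.43 to 8.74), and heterozygotes 3 and 4 (8.55 and 8.47) lay among them. S100a6 averaged 8.23 ± 0.35 in heterozygotes and 8.55 ± 0.13 in wild types (SD, n = 4 each, log2). The difference was -0.32 (SE 0.18, 95% interval -0.73 to 0.08; limma adjusted p 0.947). It was -0.17 without heterozygote 2 and -0.43 without heterozygote 3, with adjusted p-values of 0.859 and 0.632. Median scaling in place of quantiles gave -0.14, but it also moved the median of all tested probes to 0.14, and relative to that median S100a6 stood at -0.28.

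S100a4, the other stromal member, was too faint to compare. Its deposited intensity was 12.6, -0.17, 16.3 and 11.2 in heterozygotes 1 to 4, against -0.37, 11.3, 4.00 and 10.1 in wild types 1 to 4. Heterozygotes 1 and 3 were the detected mice, with detection p-values of 0.00877 and 0.00251. The wild types ranged from 0.0138 to 0.508 and were not well above background, so no fold is given. S100b gave deposited intensities of 1.16, 0.45, 2.52 and 2.53 in heterozygotes 1 to 4, against -1.44, -3.60, 2.25 and -3.44 in wild types 1 to 4. Its detection p-values ran from 0.222 to 0.815, so no level above background was measured in any mouse.

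**Figure D3:**
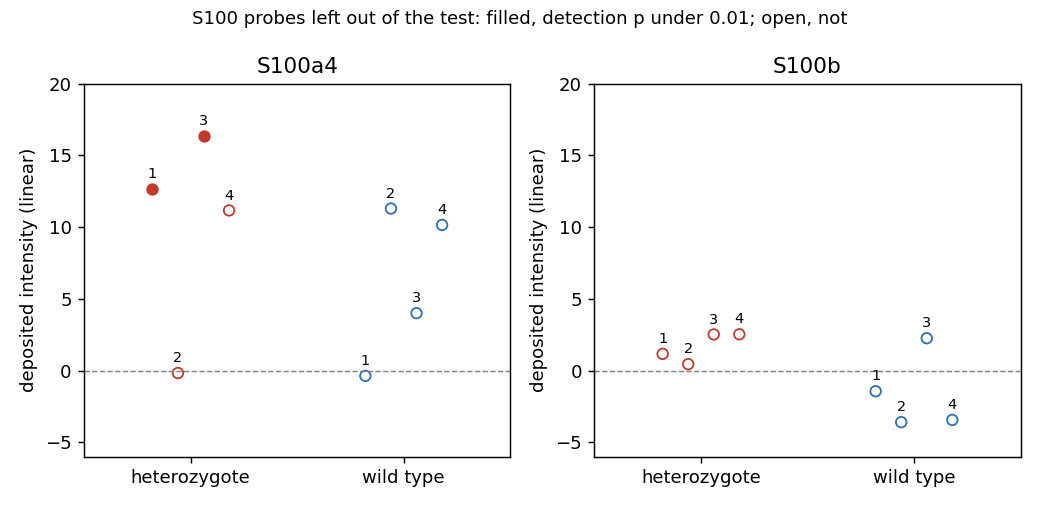
Deposited, background-subtracted intensity of S100a4 and S100b on a linear scale, with heterozygotes at the left and wild types at the right. Points are mice, numbered as in the labels, and filled points have a detection p under 0.01. Heterozygotes 1 and 3 are the filled points for S100a4, and S100b has none.

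Fibroblast markers, the setting in which S100a4 and S100a6 are best known, did not pass. Of 13 tested 11 were above 0 and 2 below, with a median of 0.14 (0.01 without heterozygote 3, 0.22 without wild type 2) and 0 calls (limma). Fap, a protease of activated fibroblasts, differed by 0.45, and Thy1 by 0.38 (0.60 without wild type 2). Gsn, an actin-severing protein, differed by -0.91 with an SE of 0.56. Its low mice were heterozygotes 1 and 4 (5.52 and 5.55, against 6.88 to 8.30 in the others), the same mice as for the cardiomyocyte marker Ldb3. Epicardial and mesothelial markers were above 0 in 7 of 7 tested genes with a median of 0.19, and in 2 of 6 without heterozygote 3, with a median of -0.16. Without wild type 2 they were above 0 in 6 of 7, with a median of 0.43.

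S100a11 had the largest difference above 0 among the 7 tested members. Its deposited intensity was 2029, 1902, 3647 and 2738 in heterozygotes 1 to 4, against 1383, 2654, 1581 and 1157 in wild types 1 to 4. All 4 heterozygotes were above 3 of the wild types in deposited intensity, and wild type 2 lay among the heterozygotes. After normalization wild type 1 (10.87) also lay above heterozygote 1 (10.81). S100a11 averaged 11.21 ± 0.49 in heterozygotes and 10.75 ± 0.38 in wild types (SD, n = 4 each, log2). The difference was 0.46 (SE 0.26, 95% interval -0.13 to 1.04; limma adjusted p 0.947). Without heterozygote 3 it was 0.23 (adjusted p = 0.821), without wild type 2 it was 0.61 (adjusted p = 0.655), and median scaling also gave 0.61 (adjusted p = 0.851), or 0.47 relative to the median of all probes.

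Heterozygote 3, the highest mouse for S100a11 at 11.91, also had the highest epicardial and mesothelial mean at 8.57, where the other heterozygotes had 6.23 to 6.71. Wild type 2, the next highest for S100a11 at 11.23, had the highest such mean among the wild types at 7.65, where the others had 6.18 to 7.03. Slpi, a gene of this list, was 10.25 in heterozygote 3 and 8.86 in wild type 1, against 4.30 to 5.21 in the other mice. Those mice were also the highest for Scgb1a1. Upk3b, from the same list, was highest in wild type 2 and heterozygote 3 (9.36 and 9.07, against 5.90 to 6.99). Heterozygote 3 and wild type 2 also led other lists, so the parallel is not particular to this one. They had the highest fibroblast means (8.75 and 8.54, against 8.15 to 8.46 in the other mice). The same held for smooth muscle (9.63 and 10.07, against 8.64 to 9.13) and for Schwann cell markers (6.97 and 6.70, against 5.90 to 6.23). The part of epicardial and mesothelial cells, or of any other cell type, in the S100a11 values was not tested.

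S100a10, the annexin A2 partner known as p11, did not pass the test. The 8 arrays gave deposited intensities of 118, 80.4, 198 and 171 in heterozygotes 1 to 4, against 107, 225, 141 and 81.8 in wild types 1 to 4. The mice were spread widely within each genotype, with wild type 2 highest and heterozygote 2 lowest. Normalized S100a10 averaged 7.16 ± 0.38 in heterozygotes and 7.29 ± 0.40 in wild types (SD, n = 4 each, log2). The difference was -0.13 (SE 0.24, 95% interval -0.67 to 0.40; limma adjusted p 0.984). Its sign turned without heterozygote 2 (0.018) or wild type 2 (0.025), and it was 0.027 with median scaling, which is -0.11 relative to the median of all probes.

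S100a13, at the shared start region with S100a1, did not pass either. Deposited intensities were 268, 254, 354 and 250.2 in heterozygotes 1 to 4, against 220.2, 270.4, 239 and 199 in wild types 1 to 4. Heterozygote 3 was the highest mouse, and the rest overlapped. The difference was 0.07 (SE 0.17, 95% interval -0.30 to 0.45; limma adjusted p 0.988), and -0.036 without heterozygote 3.

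Binding partners were split. Of 16 tested genes 11 were above 0 and 5 below, with a median of 0.10 (0.03 without heterozygote 3), and 0 passed (limma). The annexin genes Anxa5 and Anxa11 differed by 0.28 and 0.32, and the tumour suppressor gene Trp53 by 0.36, with adjusted p-values of 0.947, 0.947 and 0.950. Without heterozygote 3 Anxa5 stood at 0.15 and Trp53 at 0.20, and without wild type 2 Trp53 stood at 0.61. Fgf1, the cargo of S100a13, had the smallest unadjusted p of the list. Its normalized values were 8.78, 9.87, 9.24 and 9.17 in heterozygotes 1 to 4, against 9.79, 10.05, 9.84 and 9.69 in wild types 1 to 4. Heterozygotes 1, 3 and 4 lay below every wild type, and heterozygote 2 lay among them. The difference was -0.58 (SE 0.21, unadjusted p = 0.0219, limma adjusted p = 0.947).

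The family was then compared within each mouse, with S100a1 set against every other member. S100a1 was not shown to follow the cardiomyocyte list across the mice, so the comparison is not a correction for muscle content. For each other member, the genotype difference of S100a1 was subtracted from its own. This contrast was chosen after the values were seen. It was -0.64 for S100a8, 0.56 for S100a11, -0.25 for S100a9, -0.22 for S100a6, 0.17 for S100a13 and -0.032 for S100a10. Heterozygote 3, the lowest mouse for S100a1 and S100a8 and the highest for S100a11, enters through both terms. Without it the genotype differences that enter were 0.0089 for S100a1, -0.33 for S100a8 and 0.23 for S100a11. Exact permutation p-values (two-sided, 6 comparisons) ran from 0.171 for S100a8 to 0.886 for S100a10, and the adjusted values from 0.643 to 0.886. The smallest p that 4 mice against 4 allow is 0.0286.

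**Figure D4:**
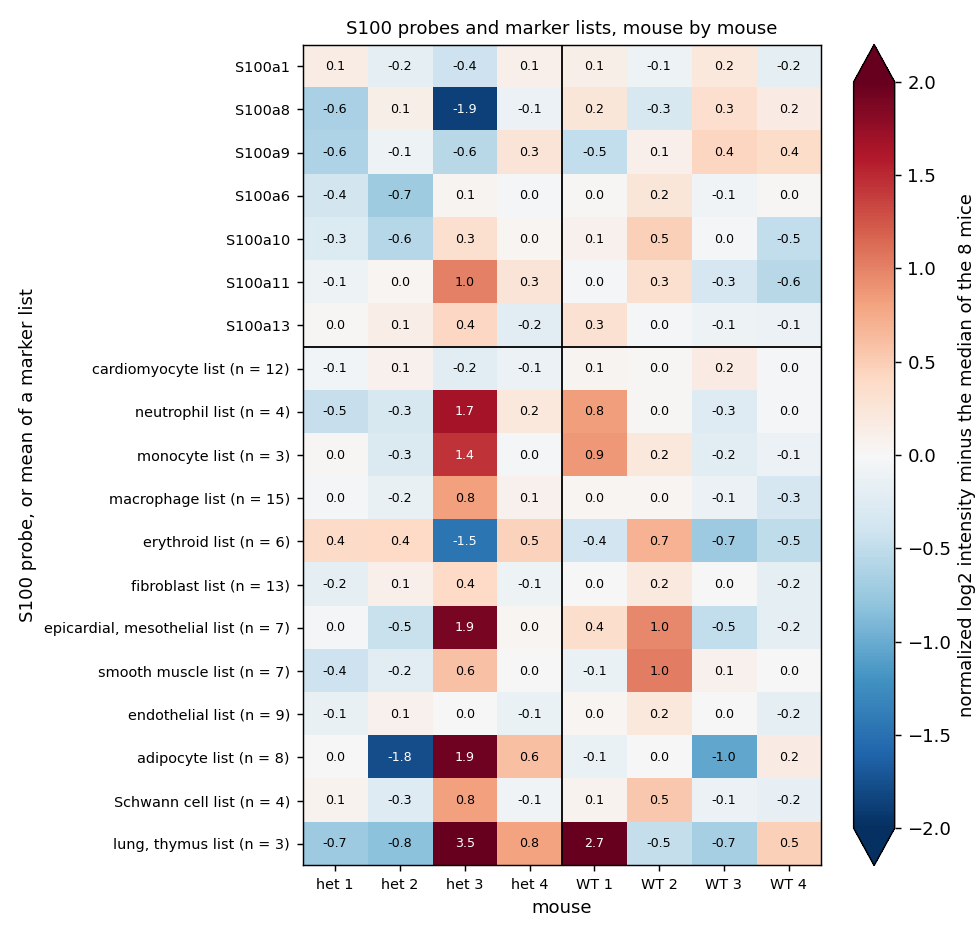
Each cell gives a mouse's normalized log2 intensity minus the median of the 8 mice, for the 7 tested S100 probes above the line and for the mean of each marker list below it (n is the number of genes). Heterozygotes are the 4 columns at the left. Heterozygote 3 is at -1.87 for S100a8, 1.00 for S100a11, 1.89 for the epicardial and mesothelial list and -1.46 for the erythroid list.

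Members that share a role or a start region did not pass as pairs across the 8 mice. Over 21 pairs of tested members, 3 had an unadjusted p under 0.05 (Pearson, exact permutation) and 0 an adjusted one, the smallest adjusted p being 0.176. The 2 calprotectin genes had r = 0.591 and rho = 0.667 (exact permutation p = 0.0942 and 0.0831; adjusted 0.33 and 0.349). Without heterozygotes 3 and 1, the mice farthest from the median of S100a8, r was -0.072, a removal that also narrows the range of S100a8. It was 0.462 without heterozygote 3 alone and 0.574 without heterozygote 1 alone. S100a1 and S100a13, with starts 105 bases apart, had r = -0.493 and rho = -0.333 (exact permutation p = 0.217 and 0.428; adjusted 0.427 and 0.693), and r = 0.118 without heterozygote 3 and wild type 3, or -0.030 without heterozygote 3 alone.

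S100a6 and S100a10 had r = 0.752 and rho = 0.814 (exact permutation p = 0.0251 and 0.0184; adjusted 0.176 and 0.349), with r = 0.605 without heterozygotes 2 and 1. Without wild type 4 the same pair had r = 0.966 and an adjusted p of 0.00417 (exact permutation). S100a8 and S100a11 had r = -0.831 and rho = -0.667 (exact permutation p = 0.0185 and 0.0831; adjusted 0.176 and 0.349), and r = -0.769 without heterozygotes 3 and 1. Without heterozygote 3 alone r was -0.451, and without heterozygote 3 and wild type 2 it was -0.328. S100a9 and S100a13 had r = -0.799 and rho = -0.762 (exact permutation p = 0.0205 and 0.0368; adjusted 0.176 and 0.349), and r = -0.928 without heterozygotes 1 and 3. Both of these pairs had an adjusted p of 0.0375 without heterozygote 1 (exact permutation). Within a genotype there were 4 mice, too few for a correlation.

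**Figure D5:**
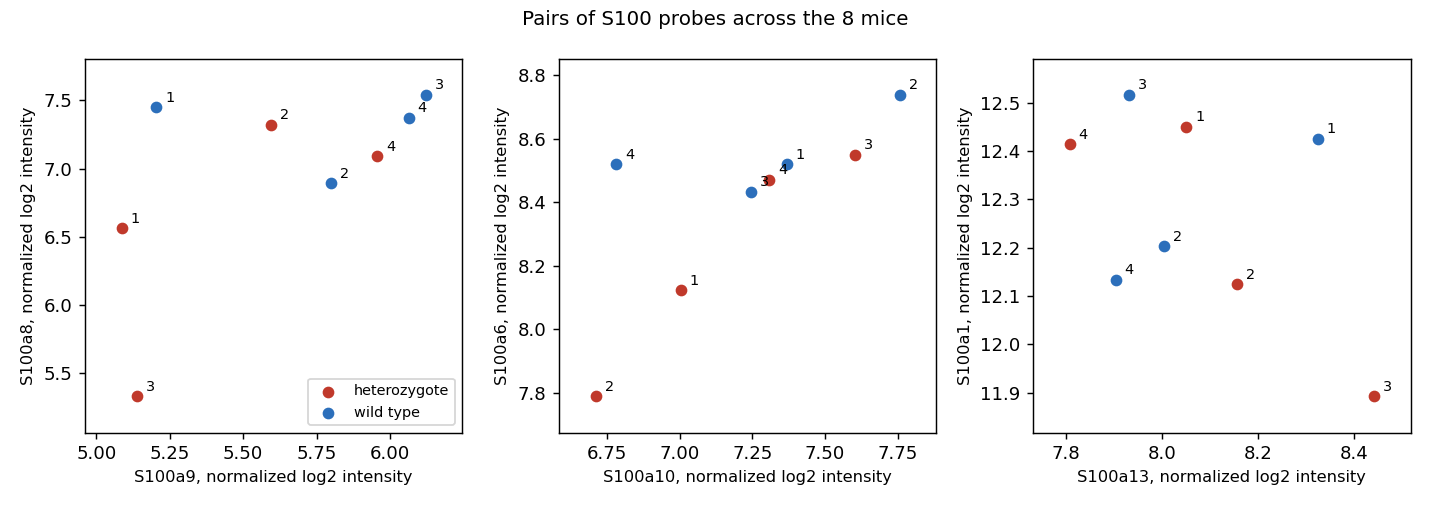
Normalized log2 intensity of S100a8 against S100a9, S100a6 against S100a10 and S100a1 against S100a13. Each point is a mouse, numbered as in the labels and coloured by genotype, heterozygotes first in the legend. S100a6 and S100a10 have r = 0.752 over the 8 mice, and heterozygote 3 lies apart in the outer panels.

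Set against the marker lists, no member passed after adjustment over 12 relations. The smallest adjusted p was 0.0744, for S100a11 with fibroblast markers (r = 0.825, rho = 0.762; exact permutation p = 0.0124 and 0.0368) and with epicardial and mesothelial markers (r = 0.857, rho = 0.762; exact permutation p = 0.00806 and 0.0368). Without heterozygote 3 and wild type 4 these became r = 0.339 and r = 0.678. Slpi, highest in heterozygote 3 and wild type 1, is part of the epicardial and mesothelial list. Median scaling gave S100a11 and the fibroblast list an adjusted p of 0.0458 (exact permutation). S100a10 with the epicardial and mesothelial list had r = 0.76 and rho = 0.833 (exact permutation p = 0.0236 and 0.0154; adjusted 0.0943 and 0.11), and r = 0.749 without heterozygote 2 and wild type 4. S100a8 with the neutrophil list had r = -0.645 and rho = -0.143 (exact permutation p = 0.107 and 0.752; adjusted 0.189 and 0.82). Its sign turned to r = 0.380 without heterozygote 3, and r was 0.031 without heterozygotes 3 and 1. Both values keep all 4 neutrophil markers, of which only 1 met the detection rule without heterozygote 3. They therefore relate S100a8 largely to values near background. S100a1 with the cardiomyocyte list had r = 0.506 and rho = 0.381 (exact permutation p = 0.201 and 0.36, adjusted 0.268 and 0.48). For this relation r was -0.498 without heterozygote 3 and wild type 3, or 0.046 without heterozygote 3 alone. It also moved with the processing, to -0.083 with cyclic loess normalization, 0.295 with the authors' values and 0.691 with median scaling. Bright markers of this list, such as Tnnc1 (14.40 to 14.605), reached the top of the scale at 14.605, which limits how far they can vary.

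The genes whose levels ran most like each member were taken from 8138 tested genes, by Pearson r over the 8 mice, as a description. For S100a1 they were Etfb (0.981), Bola1 (0.978) and Oxld1 (0.964). For S100a8 they were Ubac2 (0.992), Rap1gap2 (0.982) and Cyb5rl (0.977), and for S100a9 Ciapin1 (0.956), Rapgef3 (0.937) and Rmnd5b (0.934). None of these is a marker on the neutrophil or monocyte lists. Only 4 neutrophil and 3 monocyte markers were among the tested genes, so their absence here cannot speak to a cell source. S100a11 ran most like Myd88 (0.988), Hdac1 (0.98) and Mgp (0.979), a matrix inhibitor of calcification. S100a10 ran most like the ribosomal gene Rps19 (0.964), S100a6 most like Dbndd2 (0.96) and S100a13 most like Tbc1d20 (0.964). These r values share the same 8 arrays, and each was picked as among the highest of 8138, so a high r follows from the choice. Rank correlations were lower, at rho = 0.952, 0.810 and 0.810 for the S100a8 genes and 0.814, 0.833 and 0.833 for the S100a1 genes, in the order named. For S100a8 a single mouse, heterozygote 3 at 5.33, weighs heavily on r.

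Other S100 probes on the array added little. S100a16 was detected on 8 of 8 arrays, with a difference of 0.13 (SE 0.18, limma adjusted p 0.976). S100a14 was detected on 1 array, and S100a3, S100a5, S100a15 and S100g on 0. The probe of S100pbp, a binding-protein gene and not an S100 family member, was detected on 1.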

How the data were processed

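Arrays were grouped by the genotype and mouse number in the labels, which name biological replicates. Per the labels' protocols, column-purified, DNase-treated RNA was amplified to biotinylated cRNA. No scanner or software is named. Per the file headers, the deposited table holds an average intensity for each probe, linear and background-subtracted (23.0% to 27.2% of probes below 0), and a detection p-value in steps of 1 in 798. The authors' normalized intensity table served as an alternative (method: not given in the sources used here).

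Intensities were corrected by normexp (limma nec, detection p-values, offset 16), quantile-normalized and taken to log2; the offset pulls differences of faint probes towards 0. The 10547 probes with a detection p under 0.01 in 4 or more mice were tested, each by itself, with lmFit and eBayes (R 4.3.3, limma 3.58.1). Pearson and Spearman p-values came from all orders of the mice. Marker list means left out S100 genes and took the brightest probe of each gene. Python 3.11.15 and matplotlib 3.10.9 drew the figures. In simulated data for this comparison (10547 probes, 50 changed per size), 10% of probes changed by 0.5 were recovered, 52% at 1, 86% at 1.5 and 98% at 2 (log2).

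Symbols were updated with RefSeq names (GRCm38.p6): of 18120, 12036 were current, 5207 were synonyms of 1 gene and 877 stayed as in the file. The members, the lists and the rule for named genes (all member probes, up to 4 list genes with the smallest p, 3 genes most like each member) were chosen with earlier results of these data known. Lists were described by counts and medians, without a set test. The main fit did not pair the mice by number. Deviations of same-numbered mice correlated at -0.24, -0.28, -0.42 and 0.21. Differently numbered mice were not compared, so these values cannot settle whether the numbers pair the mice. The targeted locus is not reported here. Chip and scan batches were not analysed here. Alternatives covered normalization, background, the authors' values, detection filter, gene-level probes, array weights, eBayes options, the mouse number as a block, each mouse left out and, added after the data were seen, heterozygote 3 with wild type 2 left out.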

Additional observations from a re-analysis of the deposited data

Results flagged for a closer look

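Within each genotype, the highest or lowest mouse was set apart when the distance to its neighbour, divided by the range of the 4 mice, passed Dixon's 95% critical value. This was examined in 46 groups (7 members and 16 list means in each genotype) and set apart 3, where chance alone gives about 2.3. No member probe was among them. The mean of the receptor and signalling list was 6.81 in heterozygote 3 (other heterozygotes 6.31 to 6.38). The mean of the other alarmins was 6.60 in wild type 2 (other wild types 6.09 to 6.16). The mean of the erythroid list was 6.72 in heterozygote 3 (other heterozygotes 8.56 to 8.64).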

How the results depend on the processing

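In no alternative did a member pass the adjusted threshold (limma), and S100a6, S100a8, S100a9 and S100a11 kept their sign in all of them. With 1 mouse left out, differences ran from -0.98 to -0.33 for S100a8, 0.23 to 0.61 for S100a11, -0.18 to 0.0089 for S100a1, -0.30 to 0.025 for S100a10 and -0.036 to 0.17 for S100a13. The S100a10 difference was 0.027 with median scaling, 0.025 without wild type 2 and 0.018 without heterozygote 2. The S100a1 difference was 0.0089 without heterozygote 3. The S100a13 difference was -0.036 without heterozygote 3, -0.083 with array weights and -0.049 without heterozygote 3 and wild type 2, mice left out together after the data were seen. In that last fit 1 probe passed over the whole table and 1 gene of the lists, both being the erythroid gene Slc4a1, named after its value was seen (1.39, limma adjusted p = 0.0346). For Slc4a1 the mice left out were the lowest heterozygote (4.32) and the highest wild type (6.69). Their removal by itself parts the genotypes for this gene, so the call is no evidence of a difference. Pairs of members with an adjusted p under 0.05 numbered 0 to 2 with 1 mouse left out, and marker relations 1 with median scaling; the cause was not tested. With the mouse number as a replicate block, 0 members and 0 probes passed, and probes at an unadjusted p under 0.05 numbered 315, against 493 without it and 1553 with array weights. Faint signal is a limit: S100a4 and S100b could not be tested, and S100a9 lay near the low end of a scale that began at 4.10.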

Other observations

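Other cell types gave no call either (limma, 0 genes each). Smooth muscle markers were below 0 in 6 of 7 tested genes with a median of -0.23, and in 7 of 7 without heterozygote 3 with a median of -0.48. Without wild type 2 they were above 0 in 4 of 7, with a median of 0.03. The actin-binding gene Tagln differed by -0.61, or -0.14 without wild type 2. Des, counted in this list, was lowest in heterozygote 3 (11.80, against 12.08 to 12.51 in the other mice). In that mouse Acta2 (13.85) and Myh11 (10.07) were exceeded only by wild type 2, so Des is no clean measure of smooth muscle here. Endothelial markers were below 0 in 7 of 9, with a median of -0.11, while the receptor Flt1 differed by 0.33 (adjusted p 0.947). Erythroid markers were above 0 in 5 of 6, with a median of 0.24, and in 6 of 6 without heterozygote 3 or without wild type 2, with medians of 0.64 and 0.56. Adipocyte markers, a known setting of S100b, were above 0 in 5 of 8 with a median of 0.35, with Lep, the leptin gene, at 1.35 (SE 0.63, adjusted p 0.947; 0.88 without heterozygote 3), and in 3 of 8 without heterozygote 3 with a median of -0.13. Schwann cell markers, another such setting, were split 2 and 2, with a median of 0.02. Without heterozygote 3 the 3 tested were all below 0, with a median of -0.13, and without wild type 2 the 3 tested were all above 0, with a median of 0.30.

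The 3 tested lung and thymus markers (Cd3e, Cd3d and the airway gene Scgb1a1) averaged 8.85 in heterozygote 3 and 8.08 in wild type 1, against 4.54 to 6.17 in the other mice, in normalized log2 intensity. Scgb1a1 made up most of this, at 13.44 and 12.98, with Cd3d at 6.59 and 5.98 and Cd3e at 6.51 and 5.29. Of 13 such markers on the array, 11 were detected on 1 or more arrays. Without heterozygote 3 only 1 of the 3 met the detection rule, so this mean partly rests on a mouse that is high in it.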
